A study of Mus musculus with 8 samples.

Results

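The enzymes of the methionine cycle, of transsulfuration and of methionine salvage were examined in primary mouse hepatocytes with and without p16, the product of Cdkn2a that restrains the cyclin-dependent kinases of the G1 phase. The 10 genes listed were Mat1a, Mat2a, Gnmt, Ahcy, Bhmt, Bhmt2, Cbs, Cth, Pemt and Mtap, and 9 of them had an array row annotated with their symbol alone, of 22180 genes with such a row. Mat2a was not analysed here, so its comparison with Mat1a could not be made. Where a gene had several rows, the row of highest mean over the 8 arrays was kept, which concerned Ahcy. The genes were chosen by their place in the pathway with their knockout minus wild type differences on these same arrays in view. Their differences between genotypes are therefore given as a description, without p-values.

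Hepatocytes came from p16+/+ mice and their p16-/- littermates and were freed from the liver by collagenase perfusion. Each genotype had 4 samples with 1 array each. The cells of all 8 samples attached for 16 h in medium with 10% serum, 100 nM insulin and 25 nM dexamethasone, spent 8 h in medium with 1 mM glucose and 0.1% albumin, and were harvested at 24 h. The labels name the samples biological replicates without tying each to an animal or a preparation, so the errors and p-values below describe how these samples vary, which may be technical. Strain, age, sex and the extent of the p16 deletion are unstated in the sources used.

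Methionine adenosyltransferase joins methionine to ATP and makes S-adenosylmethionine (AdoMet), the methyl donor of the cell. Mat1a encodes the catalytic subunit of the adult liver and Mat2a that of most other cells, and in liver biology a shift from Mat1a to Mat2a is a known mark of dedifferentiated or growing hepatocytes. Methyltransferases turn AdoMet into S-adenosylhomocysteine (AdoHcy), which Ahcy splits into homocysteine and adenosine. Homocysteine is methylated back to methionine by methionine synthase or by the betaine enzymes, or is drawn through Cbs and Cth to cysteine. Polyamine synthesis also uses AdoMet and leaves methylthioadenosine, which Mtap returns to the methionine pool.

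RefSeq's promoter table (GRCm38.p6) held 8 of the 10 genes, not Mat1a or Cth. The 250 bases before the start site are shown for Gnmt and Ahcy, which lay higher in the knockout and act in succession, and for Mtap, which lay lower, so that the windows of genes that moved apart can be compared. Capitals mark matches, on either strand, to CCAAT (the CCAAT box), GGGCGG (the GC box), AGGTCA (a half-site of many nuclear receptors) and TGTTCT (a half-site of the glucocorticoid receptor). All windows read 5′ to 3′ toward the gene. Gnmt lies on the minus strand at chr17:46729166-46729415, Ahcy on the minus strand at chr2:155074498-155074747 and Mtap on the plus strand at chr4:89137120-89137369.
Gnmt: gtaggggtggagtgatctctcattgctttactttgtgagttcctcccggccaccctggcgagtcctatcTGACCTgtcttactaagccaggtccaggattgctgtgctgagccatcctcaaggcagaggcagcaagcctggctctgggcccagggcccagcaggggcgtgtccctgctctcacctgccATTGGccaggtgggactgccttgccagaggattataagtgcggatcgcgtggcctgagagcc
Ahcy: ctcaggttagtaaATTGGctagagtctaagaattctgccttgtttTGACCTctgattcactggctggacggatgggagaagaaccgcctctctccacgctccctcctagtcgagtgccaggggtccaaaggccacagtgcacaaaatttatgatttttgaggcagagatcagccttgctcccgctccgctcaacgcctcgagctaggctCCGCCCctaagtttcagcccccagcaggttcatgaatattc
Mtap: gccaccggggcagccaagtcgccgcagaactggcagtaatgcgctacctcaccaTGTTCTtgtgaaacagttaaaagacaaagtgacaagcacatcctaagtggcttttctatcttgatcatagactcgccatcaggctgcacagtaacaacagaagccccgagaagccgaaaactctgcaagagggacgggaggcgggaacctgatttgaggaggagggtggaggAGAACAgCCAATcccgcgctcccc

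All of these 3 windows held a CCAAT match, beginning 62 bases before the start in Gnmt, 237 in Ahcy and 17 in Mtap, and so did 33.9% of the 32851 windows of this length in the table. The half-site AGGTCA was found in Gnmt (181 bases before the start) and Ahcy (205) and in 14.0% of all windows. Of the 9 windows of the listed genes 3 held it. The other was that of Bhmt, whose change was 0.03 with no filter, and the windows of Bhmt2 and Pemt, which lay higher in the knockout, did not hold it. The GC box was found in Ahcy (41 bases before the start) and in 32.7% of all windows. The half-site TGTTCT was found in Mtap, 196 and 24 bases before the start, and in 16.1% of all windows. Among the 9 windows of the listed genes 7 held CCAAT, 4 the GC box and 1 TGTTCT. The E2F sequences TTTGGCGC and TTTCGCGC matched 0 of the 9 windows of the listed genes, against 0.417% and 0.256% of all windows. The matches of different motifs did not overlap in these 3 windows. A match describes the letters of a window and not binding.

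The arrays were alike in distribution, their median log2 values running from 3.76 to 3.88. The leading principal component (47.5% of the variance) separated the genotypes, and the next (17.9%) set knockout replicate 4 apart, at -25.2 against -8.91 to 14.6 for the other arrays. Results on the listed genes are therefore also given without that array. Hepatocyte genes were plainly present: Alb, the albumin gene, was at 13.5 to 13.6 on all arrays. Of 21 tested markers of mature hepatocytes 14 rose and none fell in the knockout (limma, adjusted p under 0.05), and the mean of the list was 9.16 to 9.34 in wild type and 9.94 to 10.08 in knockout arrays. Of 20 markers of sinusoidal endothelial cells 19 fell, with list means of 5.52 to 5.68 in wild type and 4.47 to 4.63 in knockout arrays. Of 15 macrophage markers 12 fell and 1 rose (list means 5.22 to 5.35 against 4.46 to 4.52), and in the stellate and fibroblast list 5 of 15 fell and 1 rose (4.87 to 4.98 against 4.36 to 4.47). None of 4 cholangiocyte markers passed the test (5.31 to 5.49 against 5.06 to 5.43). Of 9 tested markers of proliferating cells 1 rose and 2 fell (5.60 to 5.68 against 5.60 to 5.72), and of 6 of fetal liver 1 rose and 1 fell (4.70 to 4.84 against 4.70 to 4.85). Below the filter on dim genes lay, among others, the markers Ptprc, Cd163, Mki67 and Top2a. These lists hold none of the 10 genes, and the part of these shifts in the results below was not tested. In such bulk samples fewer cells of a type and less RNA per cell cannot be told apart.

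**Figure D1:**
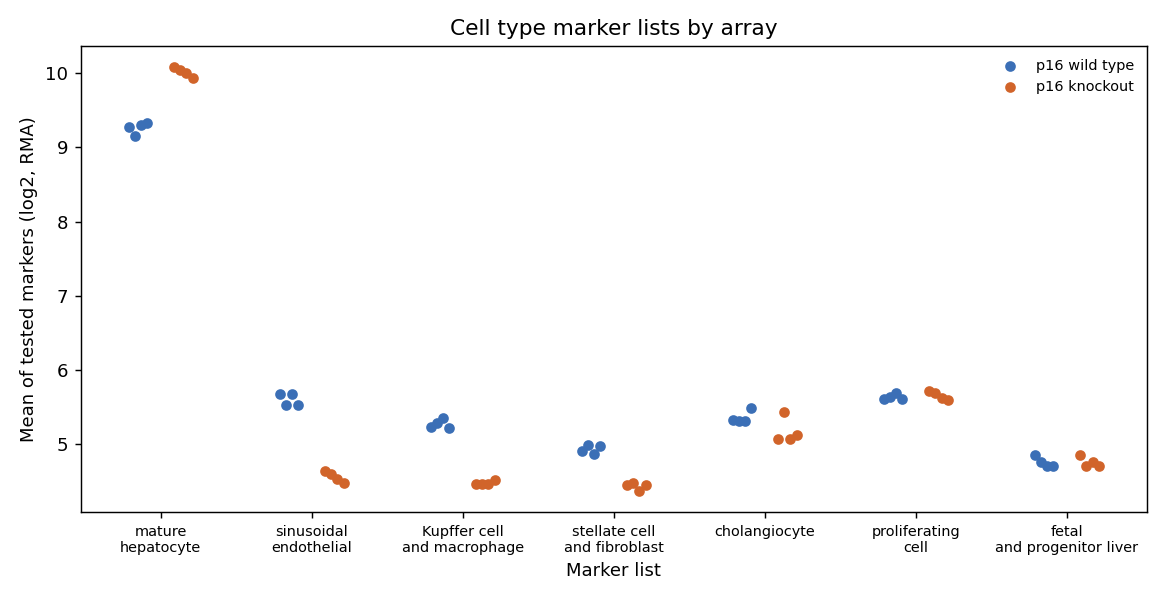
Mean log2 expression of the tested markers of each cell type list (y axis) for each array, wild type in blue and knockout in orange; each point is 1 array. The hepatocyte list mean lay higher in all 4 knockout arrays, from 9.94 to 10.08, and the endothelial, macrophage and stellate list means lay lower, without overlap between the genotypes, while the proliferation and fetal lists overlapped.

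Of the 9 measured genes, 5 lay higher in every knockout array than in any wild type array (Mat1a, Gnmt, Ahcy, Bhmt2 and Pemt) and 2 lay lower (Mtap and Cth), while Cbs and Bhmt overlapped. In all, 20.2% of the genes tested did not overlap between the genotypes, 9.13% with the knockout higher and 11.1% with it lower, and groups of 4 that do not overlap can differ by little. For 8 of the 9 genes the mean passed the filter on dim genes (3.32 on the log2 scale). In the fit across all genes (limma, adjusted p under 0.05) 6 of these 8 were called, 5 higher and 1 lower, where 13.8% of all 15380 genes tested were called, 7.02% higher and 6.76% lower. Since the genes were chosen with this contrast known, nothing is read from that count. The median change of the 8 genes was 0.61 on the log2 scale, against -0.02 over all genes tested.

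**Figure D2:**
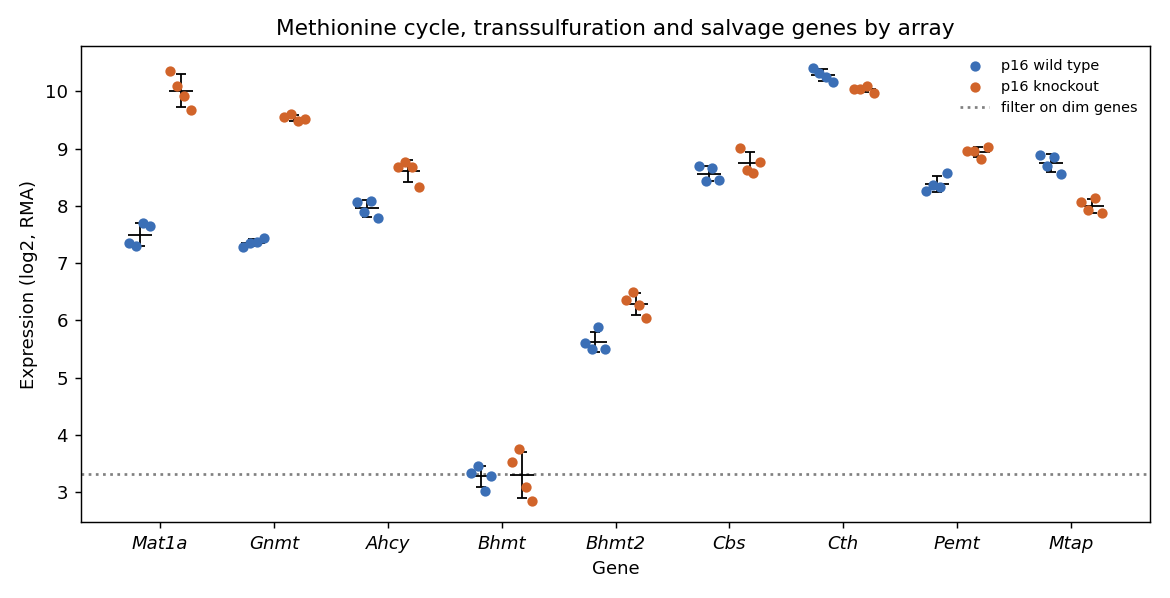
Log2 expression (y axis) of the 9 measured genes in each of the 4 wild type (blue) and 4 knockout (orange) arrays; points are arrays, horizontal ticks the group means and bars the SD. Mat1a and Gnmt differed by more than 2 log2 units, Ahcy, Bhmt2, Pemt and Mtap by 0.56 to 0.75, and Bhmt lay at the dotted line that marks the filter on dim genes.

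Mat1a, the enzyme of AdoMet synthesis, stood at 7.35, 7.30, 7.70 and 7.65 in wild type replicates 1 to 4 and at 10.35, 10.10, 9.92 and 9.67 in the knockout replicates, on the log2 scale. The lowest knockout array lay 1.98 above the highest wild type array. The means were 7.50 ± 0.20 (SD, n = 4) and 10.01 ± 0.29, a change of 2.51 (SE 0.15) or 5.71-fold. Of the genes tested 4, Mat1a included, rose by as much or more. Arg1, a mature hepatocyte marker named after its values were seen, was among them with a change of 2.69. Knockout replicate 4 held the lowest of the knockout values of Mat1a, and without it the change of Mat1a was 2.63.

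Gnmt, the glycine methyltransferase that uses up surplus AdoMet in the liver, followed Mat1a with less spread. Its values were 7.28, 7.35, 7.37 and 7.44 in wild type and 9.55, 9.60, 9.49 and 9.51 in knockout arrays. The arrays of a genotype lay close together, with SDs of 0.07 and 0.05, and the groups were 2.05 apart at their nearest. The change was 2.18 (SE 0.08), which is 4.53-fold, a rise reached by 13 of the genes tested, Gnmt among them. Without knockout replicate 4 it was 2.19. Leaving out single arrays moved the change of Mat1a between 2.40 and 2.63 and that of Gnmt between 2.15 and 2.21. Their 95% intervals (2.18 to 2.84 and 2.00 to 2.36) overlapped, and whether the changes of these genes differ was not tested.

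Pemt, which makes phosphatidylcholine from phosphatidylethanolamine with methyl groups of AdoMet and is a main consumer of it in the liver, stood at 8.27, 8.36, 8.33 and 8.57 in wild type and at 8.97, 8.96, 8.82 and 9.03 in knockout arrays. The groups lay 0.25 apart at their nearest, and wild type replicate 4 was the highest of its group. The means of 8.38 ± 0.13 and 8.94 ± 0.09 (SD, n = 4) differed by 0.56 (SE 0.10), or 1.47-fold, and by 0.53 without knockout replicate 4.

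Ahcy, which removes AdoHcy and so relieves the inhibition of methyltransferases by their product, stood at 8.06, 7.89, 8.08 and 7.79 in wild type and at 8.67, 8.77, 8.67 and 8.34 in knockout arrays. The groups did not overlap, and knockout replicate 4 came nearest to the wild type arrays. The change was 0.66 (SE 0.12), or 1.58-fold, and 0.75 without that replicate. A second row annotated to Ahcy gave 5.88, 5.83, 5.83 and 6.22 in wild type and 6.74, 6.07, 6.35 and 6.63 in knockout arrays, a change of 0.51 with overlapping groups. Both rows thus lay higher on average in the knockout. Which transcripts or related copies of the gene each row measures is unstated in the sources used.

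The betaine enzymes return homocysteine to methionine with a methyl group from betaine (Bhmt) or from S-methylmethionine (Bhmt2). Bhmt2 stood at 5.61, 5.50, 5.88 and 5.50 in wild type and at 6.35, 6.50, 6.27 and 6.04 in knockout arrays. The nearest arrays of the genotypes were 0.16 apart, and the change was 0.67 (SE 0.12), or 1.59-fold; it was 0.75 without knockout replicate 4. Bhmt stood at 3.33, 3.46, 3.03 and 3.28 in wild type and at 3.53, 3.75, 3.08 and 2.85 in knockout arrays. It overlapped fully and did not pass the filter, and with no filter its change was 0.03 with a 95% interval of -0.38 to 0.44. It was 0.18 without knockout replicate 4, turned to -0.12 without knockout replicate 2, and also lay below 0 without wild type replicate 3 (-0.06) or knockout replicate 1 (-0.05). The 95% interval of Bhmt holds changes in either direction, and what size of change could be detected at this signal was not computed.

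The enzymes of transsulfuration were not among the called genes. Cbs, which condenses homocysteine with serine to cystathionine, stood at 8.70, 8.44, 8.66 and 8.46 in wild type and at 9.01, 8.63, 8.57 and 8.76 in knockout arrays. The groups overlapped, with a change of 0.18 (SE 0.12, 95% interval -0.07 to 0.43). It was 0.17 without knockout replicate 4 and 0.09 without knockout replicate 1. Cth, which cleaves cystathionine to cysteine, stood at 10.42, 10.32, 10.26 and 10.17 in wild type and at 10.04, 10.05, 10.09 and 9.97 in knockout arrays. All knockout arrays lay below all wild type arrays, by 0.08 at the nearest, and the change was -0.26 (SE 0.09), and -0.23 without knockout replicate 4. It was called with the filter at the 60th percentile and with an intensity trend in the variance model. The interval of Cbs overlapped those of Ahcy, Bhmt2 and Pemt, and differences between the genes were not tested.

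Mtap, methylthioadenosine phosphorylase, was the listed gene with the largest fall. It stood at 8.89, 8.70, 8.85 and 8.55 in wild type and at 8.06, 7.92, 8.15 and 7.88 in knockout arrays. The groups were 0.41 apart at their nearest, and the means of 8.75 ± 0.15 and 8.00 ± 0.12 (SD, n = 4) differed by -0.75 (SE 0.11), a 1.68-fold lower level in the knockout. Of the genes tested 227 fell as much or more. Without knockout replicate 4 the change was -0.70.

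Mtap is the neighbour of Cdkn2a among the protein-coding genes with an array row, so the 3 such genes on each side of Cdkn2a were set beside it. Cdkn2a itself was at 4.16, 4.79, 4.48 and 4.68 in wild type and 4.28, 4.66, 4.27 and 4.91 in knockout arrays, a change of 0.0040. Where its row lies relative to the deleted part is unstated in the sources used, so it does not check the genotype. Cdkn2b, the gene of the related inhibitor p15 on the other side, was at 5.62 ± 0.20 and 5.66 ± 0.08, a change of 0.04 (limma, adjusted p = 0.857). The interferon gene Ifna1 had a change of 0.10 (adjusted p = 0.769). Ifne, Dmrta1 and Zfp352 lay below the filter on dim genes, with means of 1.88 to 3.28 in wild type, and overlapped between the genotypes. Of these 7 genes Mtap was the 1 whose groups did not overlap.

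**Figure D3:**
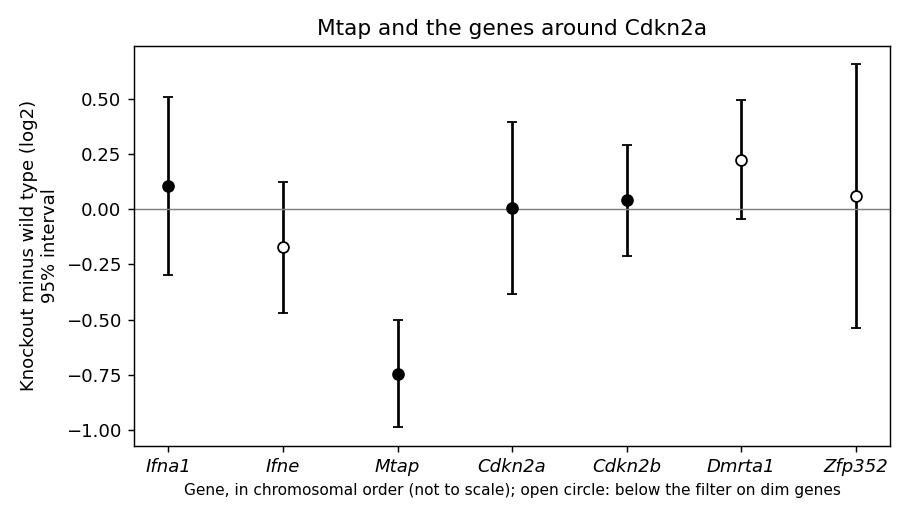
Knockout minus wild type log2 change with its 95% interval (y axis, limma fit with no filter on dim genes) for Cdkn2a and the 3 measured protein-coding genes on each side, in chromosomal order and not to scale; open circles are genes below the filter. Mtap lay at -0.75, and the intervals of the other 6 genes included 0.

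Genes resembling Mat1a were sought by the mean absolute difference of their values over the 8 arrays, each gene centred on its own mean. The nearest were Pck1, the gluconeogenic enzyme that makes phosphoenolpyruvate, with a difference of 0.13 log2 units, Rasgef1b with 0.14 and the steroid hydroxylase gene Cyp17a1 with 0.17. Pck1 was at 5.28 to 5.85 in wild type and 7.86 to 8.60 in knockout arrays, and its change was 2.47 (SE 0.17). A search of this kind finds genes that differ between the genotypes as Mat1a does.

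A list of 118 other genes around the cycle, written with earlier results of these data known, was then examined in the fit across all genes. Of these 104 had a row and 103 were tested; 27 rose, 13 fell and the other 63 missed the threshold. The called share was 38.8%, beside 13.8% of all genes tested, and the median change was 0.08 beside -0.02. With the filter at the 60th percentile 99 of these genes were tested, and the called shares were 44.4% and 22.5%. Since the list was written with earlier results of these data known, nothing is read from these shares. On these arrays the list means of hepatocyte and endothelial markers differed by 0.75 and -1.05, and their part in these counts was not tested.

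Genes of choline, betaine and one-carbon donors, a list that also holds enzymes of phospholipid synthesis and sarcosine oxidation, had the highest share of calls of the 7 lists. Of 12 tested genes 8 rose and 1 fell, with a median change of 0.52. Pipox, which oxidises pipecolate and sarcosine, was at 6.77 to 6.95 in wild type and 7.92 to 8.30 in knockout arrays and rose (by 1.30, SE 0.10, adjusted p = 1.30e-05). Sardh, which oxidises the sarcosine that Gnmt makes, rose by 0.91 (SE 0.12, adjusted p = 6.77e-04), and by 0.58 (adjusted p = 0.00583) with the mean of its rows. The betaine transporter gene Slc6a12 rose by 0.85 (SE 0.10, adjusted p = 3.06e-04). The fall was that of Chka, a choline kinase, at 9.13 to 9.43 in wild type and 8.01 to 8.48 in knockout arrays (2.00-fold lower, log2 SE 0.11, adjusted p = 1.78e-04). In none of these 4 genes did the genotypes overlap, nor did they in 20.2% of all genes tested. The 4 were named for the smallest p among called genes, so nothing is read from this.

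The folate cycle, which feeds methionine synthase, moved both ways: of 23 tested genes 4 rose and 4 fell. Aldh1l1, the cytosolic formyltetrahydrofolate dehydrogenase, was at 6.54 to 6.77 in wild type and 8.15 to 8.53 in knockout arrays and rose (by 1.72, SE 0.10, adjusted p = 3.61e-06). Ftcd, which joins histidine breakdown to folate, rose by 0.57 (SE 0.11, adjusted p = 0.00581). Methionine synthase itself, Mtr, had a change of -0.31 (SE 0.14, adjusted p = 0.193) with overlapping groups, and of -0.16 without knockout replicate 4 (adjusted p = 0.313). Its reactivating enzyme Mtrr fell by 0.47 (SE 0.08, adjusted p = 0.00367), with 7.84 to 7.87 in wild type and 7.30 to 7.50 in knockout arrays. The folate receptor gene Folr2, which is also known from macrophages, fell by 0.49 (SE 0.11, adjusted p = 0.0105). The macrophage list mean was lower by 0.79 on the same arrays, and its part in the change of Folr2 was not tested.

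Of the 6 called folate genes named here, 2 lost their calls when single arrays were left out. For the other 2 called genes of the list, the calls in these refits were not examined gene by gene. Mthfd2, a mitochondrial enzyme of the folate cycle, rose by 0.33 (SE 0.08, adjusted p = 0.0247), and the call ended without wild type replicate 1 or 3 (adjusted p = 0.0690 and 0.0693) or knockout replicate 1 or 3 (0.0736 and 0.0595). The Mthfd2 call also ended with no filter on dim genes (adjusted p = 0.0509) and with median centring (0.0521). Mmachc, which processes cobalamin for methionine synthase, fell by 0.38 (SE 0.10, adjusted p = 0.0224), and the call ended without wild type replicate 1 or 3 (0.0721 and 0.0541) or knockout replicate 2 or 3 (0.0705 and 0.0526). Median centring also ended the Mmachc call (adjusted p = 0.0608).

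Around AdoMet supply and AdoHcy removal, 1 of 10 tested genes rose and 2 fell. The riser was Adk, which phosphorylates the adenosine that Ahcy releases (0.60, SE 0.09, adjusted p = 8.20e-04; 8.76 to 8.95 in wild type and 9.43 to 9.57 in knockout arrays). Mat2b, the regulatory subunit that partners the Mat2a enzyme, had a change of 0.13 (SE 0.10, adjusted p = 0.451, 95% interval -0.09 to 0.34), and one of 0.07 without knockout replicate 3 (adjusted p = 0.721). The amino acid transporter gene Slc7a8 fell by 0.66 (SE 0.11, adjusted p = 0.00216). Mettl16, an RNA methyltransferase known to control Mat2a transcripts, fell by 0.44 (SE 0.12, adjusted p = 0.0357). That call ended without wild type replicate 1 or 3 (adjusted p = 0.0941 and 0.0952) or knockout replicate 1, 2 or 4 (0.0867, 0.0505 and 0.0719). It also ended with no filter on dim genes (adjusted p = 0.0646) and with median centring (0.0738).

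Of 21 tested methyltransferases that use AdoMet 6 rose and 2 fell. Inmt, an amine N-methyltransferase, was at 4.46 to 4.83 in wild type and 6.21 to 6.73 in knockout arrays and rose (by 1.79, SE 0.14, adjusted p = 1.16e-05). Gamt, which makes creatine, was at 6.20 to 6.39 in wild type and 7.60 to 7.73 in knockout arrays and rose (by 1.38, SE 0.08, adjusted p = 3.72e-06). The DNA methyltransferase gene Dnmt3a rose by 0.92 (SE 0.13, adjusted p = 6.45e-04). The protein arginine methyltransferase gene Prmt5 fell by 0.51 (SE 0.10, adjusted p = 0.00685) and Mettl7b by 0.63 (SE 0.14, adjusted p = 0.0144).

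Downstream of Cth, in the metabolism of cysteine, sulfide and glutathione, 4 of 19 tested genes rose and 1 fell. Cdo1, the cysteine dioxygenase that commits cysteine to taurine and sulfate, was at 10.01 to 10.29 in wild type and 11.31 to 11.44 in knockout arrays and rose (by 1.17, SE 0.09, adjusted p = 1.18e-05). Chac1, which degrades glutathione, rose by 0.65 (SE 0.08, adjusted p = 3.46e-04), and Gclc, the catalytic subunit of the rate-limiting enzyme of glutathione synthesis, by 0.64 (SE 0.11, adjusted p = 0.00214). The cystine importer gene Slc7a11 was at 8.72 to 9.05 in wild type and 7.29 to 7.86 in knockout arrays and fell (-1.28, SE 0.13, adjusted p = 7.34e-05).

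Around Mtap, in polyamine synthesis and methylthioadenosine salvage, 2 of 14 tested genes rose and 3 fell. Enoph1, an enzyme of the same salvage route, fell by 0.50 (SE 0.09, adjusted p = 0.00290; 6.63 to 6.87 in wild type and 6.23 to 6.32 in knockout arrays). Odc1, the rate-limiting enzyme of polyamine synthesis, fell by 0.61 (SE 0.11, adjusted p = 0.00407), and Kyat3, a transaminase, by 0.46 (SE 0.09, adjusted p = 0.00579). Azin2, an inhibitor of antizyme, rose by 0.88 (SE 0.10, adjusted p = 1.90e-04). Its relative Azin1 had a rise of 0.30 (SE 0.09, adjusted p = 0.0478), a call that ended when any 1 array other than knockout replicate 4 was left out (adjusted p = 0.0616 to 0.130), with the replicate block (0.0715), with no filter on dim genes (0.0898) and with median centring (0.108). The other salvage genes Mri1, Apip and Adi1, named after their values were seen, had changes of 0.08, 0.17 and -0.09 (adjusted p = 0.645, 0.340 and 0.531).

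The repair of oxidised methionine was represented by 4 genes, of which 2 rose. Msrb1 rose by 0.68 (SE 0.10, adjusted p = 9.27e-04) and Msra by 0.48 (SE 0.08, adjusted p = 0.00297). In neither did the genotypes overlap, but both were named as called genes, so nothing is read from this. Msrb2 and Msrb3, named after their values were seen, had changes of -0.36 and 0.13 (adjusted p = 0.0623 and 0.414).

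**Figure D4:**
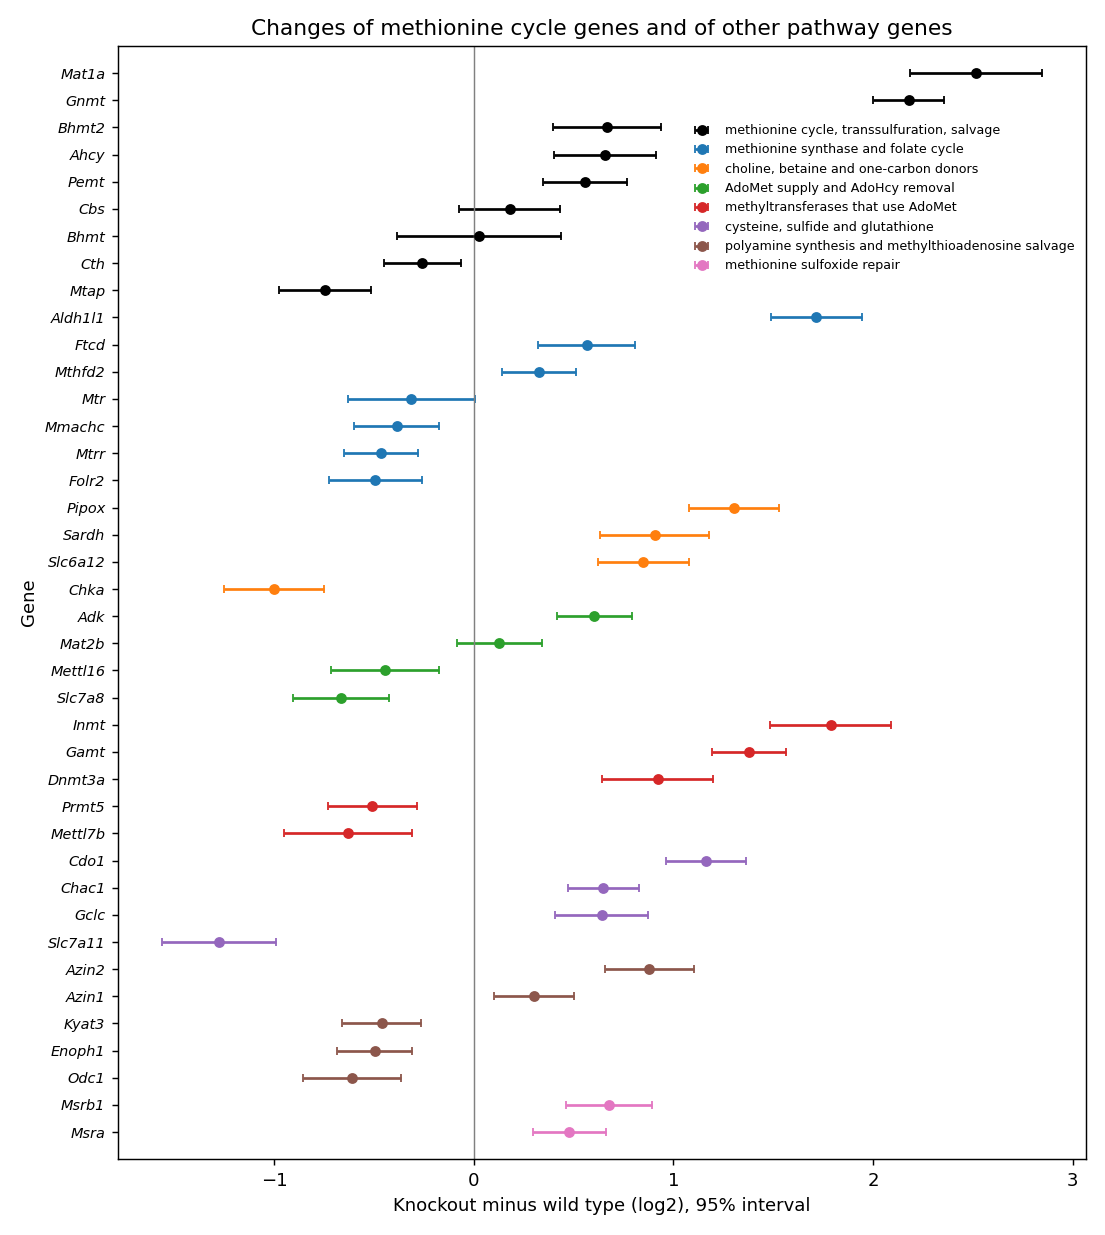
Knockout minus wild type log2 change with its 95% interval (x axis) for the 9 listed genes (black) and the other pathway genes named in the text (colours by list). Mri1, Apip, Adi1, Msrb2 and Msrb3 are not drawn. Points are estimates of the limma fit over 8 arrays. Mat1a (2.51) and Gnmt (2.18) lay farthest to the right, and Slc7a11 (-1.28) and Chka farthest to the left.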

How the data were processed

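Total RNA of 8 hepatocyte samples was hybridised to Affymetrix gene arrays. Values are log2 expression as deposited, made by the authors with RMA in the oligo package per the submitters' processing notes, versions unstated. RMA equalises array distributions and compresses dim signals. Rows were named from the platform annotation: of 41345 rows 23521 had 1 symbol, 1814 several and 16010 none; the row of highest mean was kept for each gene. Genes with a mean above the 40th percentile of row means (3.32) were tested, 15380 in all, with limma 3.58.1 in R 4.3.3 (6 residual and 5.05 prior degrees of freedom), Benjamini-Hochberg adjustment over all of them and a call at 0.05. Each change is knockout minus wild type, errors of changes are limma's moderated SE, and tests are two-sided. Arrays have no read depth; 4 arrays per genotype limit the precision.

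The genes and lists were chosen with earlier results of these data known. Of the other pathway genes, the 3 rises and 3 falls of smallest p per list were named, with Mtr, Mat2b, Cdo1, Gclc and Odc1; marker genes are given by list. The fit was tested on data simulated in a single draw from the means and spreads of the 15380 genes, with a small share of them changed. Of genes changed by 0.5 on the log2 scale 54.0% were called, by 1 97.0% and by 2 100%, and 4.92% of calls fell on unchanged genes. Many more genes were called in the real data than were changed in the simulation, so recovery there can differ. The planned contrast of Mat1a with Mat2a was not run, as no row carried the symbol Mat2a alone. Promoter windows came from RefSeq's table for GRCm38.p6. Alternatives were other filters, rows, scalings and variance models, a replicate block, stricter thresholds and leaving out each array.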

Additional observations from a re-analysis of the deposited data

Results flagged for a closer look

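Of 154 sets of 4 arrays examined for a value far from the other 3, 12 had one, where chance gives about 1 in 20. None was a set of the 9 listed genes. In knockout arrays, replicate 2 was low for Mthfd2 (9.10 against 9.25 to 9.27), replicate 1 was high for Cdo1 (11.44 against 11.31 to 11.33) and low for Ttr (12.95 against 12.98), and replicate 4 was low for Gclc (10.12 against 10.29 to 10.32) and Mcm2 (5.97 against 6.19 to 6.22) and high for the mean of the macrophage list (4.52 against 4.46 to 4.47). Knockout replicate 2 was high for the mean of the cholangiocyte list (5.43 against 5.06 to 5.12). In wild type arrays, replicate 1 was high for Slc7a8 (4.91 against 4.55 to 4.59), replicate 2 was low for Lyve1 (7.90 against 8.09 to 8.12), and replicate 4 was high for Ifna1 (6.29 against 5.53 to 5.64), Ifne (3.41 against 3.22 to 3.25) and the cholangiocyte list mean (5.49 against 5.31 to 5.32).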

How the results depend on the processing

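The count of 2119 called genes fell to 1071 at an adjusted p under 0.01 and to 895 with a change of at least 1.5-fold; leaving out single arrays gave 1448 to 2165 and the other planned settings 1610 to 2615. The 5 higher and 1 lower listed genes kept their calls in all 16 refits (7 called in 2 of them, where Cth was added). As the listed genes were chosen with this contrast on the same arrays known, nothing is read from that. Pathway genes called numbered 33 to 48. For named genes outside the list, 37 refits ended a call (Azin1 in 10, Mettl16 in 7, C1qa in 7, Mthfd2 in 6, Mmachc in 5, Cd24a in 2), 1 gave one (Ttr, intensity trend) and none turned the direction of a called gene; uncalled genes near 0, such as Cdkn2a, Cdkn2b and Bhmt, did turn. The cause was not tested. Whether the replicate numbers pair the samples is unstated in the sources used. Deviations of same-numbered arrays correlated at 0.06, 0.02, 0.26 and 0.21, and 2 of the 4 wild type arrays correlated best with their own number. From high to low, the second principal component ordered the replicates 3, 1, 2 and 4 in wild type and in knockout arrays alike. A preparation or batch shared by number was not tested. With the replicate block 2215 genes, 41 pathway genes and the same 6 listed genes were called. The change of Mat1a against Mat2a has no value under any setting. Dim signal limits Bhmt, Ifne, Dmrta1 and Zfp352.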
